A study of Mus musculus with 6 samples.

Results

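The 9 genes described here are widely used to recognise macrophages and were measured in mouse myeloid cells without and with induction of PU.1. They are Adgre1, Mrc1, Mpeg1, Lyz1, Lyz2, Cd68, Siglec1, Cd14 and Lgals3, and each was taken by its symbol, as the row of the array table whose platform annotation gives that symbol and no other. All 9 were found, each on 1 row, among 22180 genes with such a row. The cells came from fetal liver, and both groups were kept in GM-CSF at 1 ng/ml, a cytokine that sustains granulocytes and macrophages. One group of 3 samples was uninduced, and the other group of 3 had 1000 ng/ml doxycycline for 72 hours, a treatment that the labels give as PU.1 expression. PU.1 is the ETS-family transcription factor encoded by Spi1. The engineered gene, its promoter and the origin of the cell line are not described in the labels, and no sample had the drug without induction, so drug and PU.1 cannot be told apart. Nothing in the labels says that A, B and C were grown as separate cultures, so the p-values rest on a spread between samples that may be technical only.

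Macrophages are phagocytes of the monocyte lineage, and the products of these genes serve uptake, killing and sensing at their surface and in their lysosomes. Adgre1, Mrc1, Siglec1 and Cd14 encode surface receptors, Cd68 and Mpeg1 encode proteins of endosomes and lysosomes, Lyz1 and Lyz2 encode lysozymes, and Lgals3 encodes a galectin. Several of them are not private to macrophages: lysozyme is also made by granulocytes and their precursors, and galectin-3 by many cell types. PU.1 is known as a factor that macrophage development needs and that binds the regulatory regions of many myeloid genes.

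Each sample was measured on 1 Affymetrix mouse gene 2.0 ST array, and all values below are the deposited log2 expression values or differences between them (induced minus uninduced). The correlation of 2 arrays over all rows was 0.973 to 0.988 in the same group and 0.942 to 0.991 across groups. As a limit for the range of background, the 95th percentile of 1390 olfactory and vomeronasal receptor genes was taken on each array, and it lay between 7.05 and 7.99. Because that limit was 7.99 and 7.86 in induced B and C and 7.05 to 7.39 on the other arrays, dim genes were judged array by array. Of the 10 genes listed for myeloid cells in general, 8 were above the limit on all 6 arrays. Ptprc, which encodes the leukocyte antigen CD45, was below it on all 6. The row of Spi1 itself was at 8.76 ± 0.10 in uninduced and 9.07 ± 0.05 in induced samples (n = 3 per group, limma adjusted p = 0.152). All its induced values lay above the uninduced ones, as for 16.0% of all genes. The difference was 0.31 as deposited, 0.17 after median centring, 0.52 after quantile normalization and 0.60 after cyclic loess. Whether the probes of Spi1 read the induced transcript is not known here. In bulk RNA like this, fewer cells of a type and less RNA per cell cannot be told apart.

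Induced cells had higher transcript levels of 6 of the 9 genes: Adgre1, Mrc1, Mpeg1, Lyz1, Lyz2 and Cd68 (limma, adjusted p under 0.05 over all genes). Over all genes 0.374% were called higher and 1.05% lower. No member was called lower by limma, although Cd14 and Lgals3 lay below their uninduced means in 3 of 3 induced samples and had an unadjusted p under 0.05, as did 16.9% of all genes in that direction. At the same unadjusted limit 7 members were higher, against 11.4% of all genes. The 3 induced values lay above the 3 uninduced ones for 7 members, the 6 called ones and Siglec1, while 16.0% of all genes showed that order. The reverse order, found for 15.4% of all genes, was shown by 0 members. The median difference of the 9 genes was 1.36, and that of all genes 0.06. Since these genes were chosen with earlier results known, the counts describe them and do not test them as a list.

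**Figure D1:**
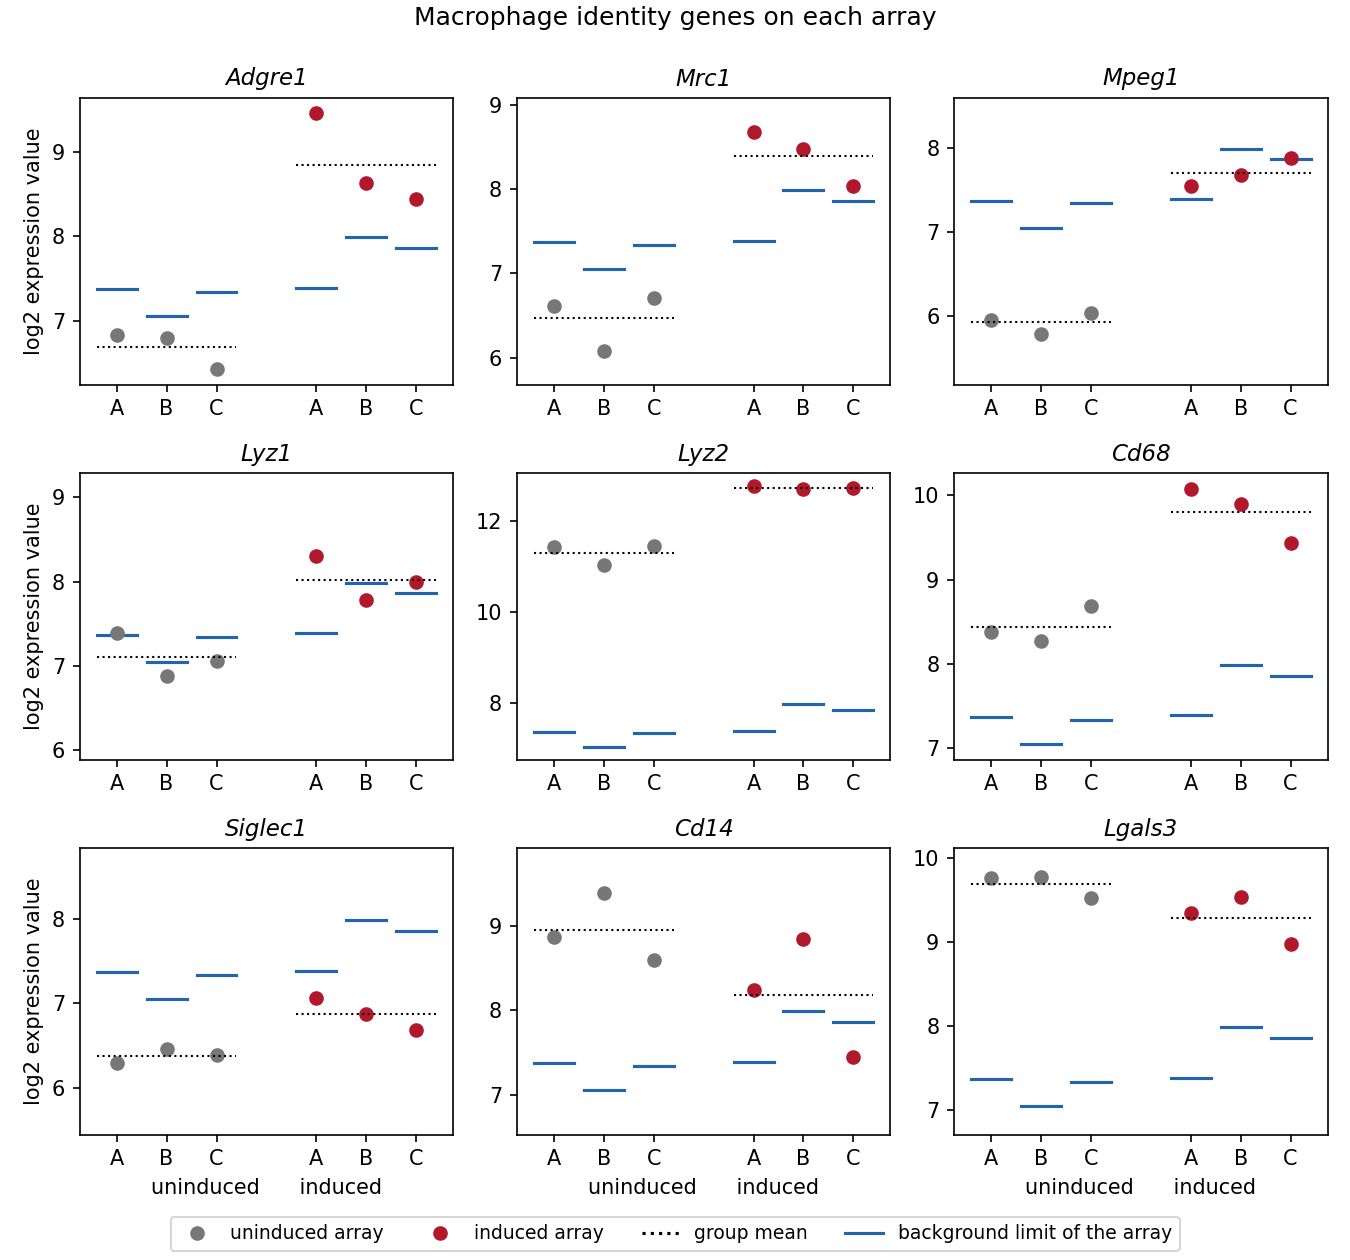
Deposited log2 expression value (vertical axis) of each of the 9 genes on the uninduced (grey) and induced (red) arrays A, B and C; dotted lines are group means and blue bars the background limit of each array. In 7 panels the 3 red points lie above the 3 grey points; Cd14 and Lgals3 overlap, and Siglec1 stays under the blue bars on all 6 arrays.

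Among the surface receptors, Adgre1 was higher in induced cells. It encodes an adhesion G protein-coupled receptor, the antigen by which mouse macrophages are most often stained, and lies on chromosome 17 (57358581 to 57483529, GRCm38). Its log2 value was 6.83, 6.80 and 6.42 in the uninduced samples A, B and C, against 9.46, 8.63 and 8.44 in the induced samples A, B and C. All uninduced values were in the range of background and all induced values above it. The difference was 2.16 (SE 0.24, limma adjusted p = 0.0018). Because the starting level is only a bound, the rise is given as 3.01-fold against the mean limit of the uninduced arrays. That fold does not allow for the higher limits of induced B and C (7.99 and 7.86). The difference was 1.86 without induced A, the array with the highest value, and the call held.

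Mrc1 encodes the mannose receptor CD206, an endocytic C-type lectin, on chromosome 2 (14229414 to 14332023). Uninduced A, B and C were at 6.61, 6.08 and 6.71, and induced A, B and C at 8.68, 8.48 and 8.04. As for Adgre1, the groups fell on opposite sides of the background limit. Its difference was 1.93 (SE 0.20, limma adjusted p = 0.00134). Against the mean limit of the uninduced arrays the rise was 2.21-fold, with no allowance for the higher limits of induced B and C. Induced C, at 8.04, was little above its own limit of 7.86.

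Siglec1 encodes sialoadhesin, or CD169, a receptor for sialic acids on resident macrophages (chromosome 2, 131067801 to 131086778). It was at 6.29, 6.46 and 6.39 in uninduced and at 7.06, 6.87 and 6.68 in induced A, B and C. Both groups were in the range of background on every array, although they did not overlap. The difference of 0.49 (SE 0.14, limma adjusted p = 0.102) did not pass the threshold, and no fold is given.

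Of the lysosomal proteins, Cd68 encodes macrosialin, a glycoprotein of the LAMP family, on chromosome 11 (69664213 to 69666170). Its values were 8.38, 8.27 and 8.69 without induction and 10.08, 9.90 and 9.44 with it, in A, B and C. It was above background on all 6 arrays, and the groups did not overlap. The rise was 1.36 (SE 0.18, limma adjusted p = 0.00563), or 2.57-fold.

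Mpeg1 encodes perforin-2, a pore-forming protein of phagocytes (chromosome 19, 12460770 to 12465285). Uninduced samples A, B and C had 5.95, 5.79 and 6.04, all in the range of background. Induced A, B and C had 7.55, 7.67 and 7.88, of which A and C were above their array's limit, C by little. The difference of 1.77 (SE 0.14, limma adjusted p = 0.000237) had the lowest adjusted p of the 9 genes. The uninduced level is only a bound, and the limits of induced B and C (7.99 and 7.86) were above those of the uninduced arrays, so no fold is given.

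Lyz2 and Lyz1 encode lysozymes, of which Lyz2 is known as the macrophage form and Lyz1 as that of Paneth cells in the gut. They lie beside each other on chromosome 10, Lyz2 at 117277541 to 117282272 and Lyz1 at 117287795 to 117292868, with 5522 bases between them. The genes are near-identical copies, and how far the probes of either row take up the transcript of the other is not known here, so the Lyz1 values are uncertain. Lyz2 was bright throughout, at 11.43, 11.03 and 11.45 in uninduced and 12.77, 12.70 and 12.73 in induced A, B and C. Induced samples were close together (SD 0.03, n = 3) and the uninduced ones spread more widely (SD 0.24, n = 3), and the groups did not overlap. The rise was 1.43 (SE 0.15, limma adjusted p = 0.0011), or 2.69-fold.

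Lyz1 was at 7.39, 6.88 and 7.06 in uninduced and at 8.30, 7.78 and 7.99 in induced A, B and C. These values straddled the background limit, being above it on 1 of 3 uninduced and 2 of 3 induced arrays. The rise of 0.92 (SE 0.18, limma adjusted p = 0.0339) passed the threshold. Its call was lost without uninduced A (1.06), uninduced B (0.80), uninduced C (0.89) or induced C (0.93), at adjusted p between 0.0536 and 0.135, after median centring (0.78, adjusted p = 0.107) and after cyclic loess (0.95, adjusted p = 0.0509).

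**Figure D2:**
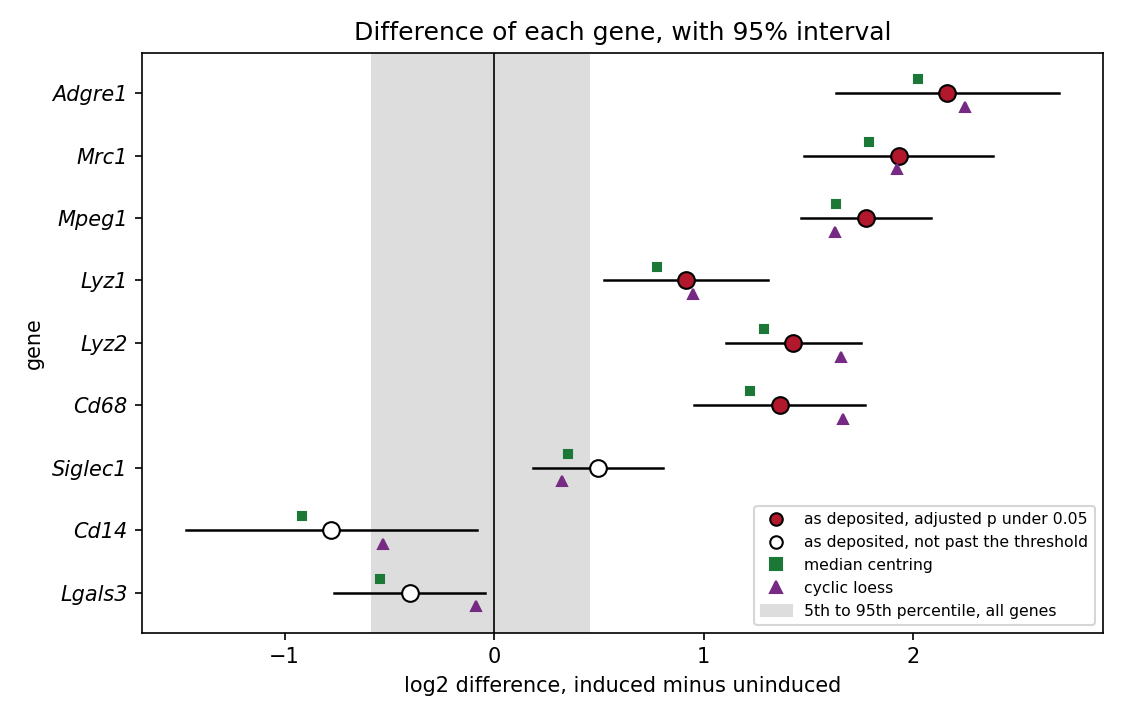
Log2 difference, induced minus uninduced, of each gene (circles, with its unadjusted 95% interval), beside the same after median centring (squares) and after cyclic loess (triangles); grey marks the 5th to 95th percentile of all genes, from -0.58 to 0.45. The 6 filled circles lie to the right of the grey band, and Lgals3 moves from -0.40 to -0.09 after cyclic loess.

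Promoter sequences were held for 6 of the 9 genes in the RefSeq table of GRCm38.p6: Mrc1, Mpeg1, Lyz1, Lyz2, Cd68 and Lgals3. The 250 bases before each start were searched on both strands for GAGGAA, a core of PU.1 sites, and for GGAAGT, a core shared by ETS factors; the motifs can overlap by a shared stretch of letters. The first, GAGGAA, was in 2 of the 6 windows and GGAAGT in 3, and 4 of 6 held either, while 23.3%, 19.7% and 36.7% of 32851 promoter windows of that length did. The 4 windows with a match are printed 5′ to 3′ on the strand of the gene, because all 4 genes rose and because the lysozyme pair can be compared base by base. Capitals mark the matched motif on either strand (ACTTCC and TTCCTC are the reverse strand spellings).
Lyz2, chr10:117282273-117282522, minus strand: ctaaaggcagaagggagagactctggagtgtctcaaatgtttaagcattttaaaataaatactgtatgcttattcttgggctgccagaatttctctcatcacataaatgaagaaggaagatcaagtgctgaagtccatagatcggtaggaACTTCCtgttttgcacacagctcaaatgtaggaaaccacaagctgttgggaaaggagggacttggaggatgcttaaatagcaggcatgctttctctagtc
Lyz1, chr10:117292869-117293118, minus strand: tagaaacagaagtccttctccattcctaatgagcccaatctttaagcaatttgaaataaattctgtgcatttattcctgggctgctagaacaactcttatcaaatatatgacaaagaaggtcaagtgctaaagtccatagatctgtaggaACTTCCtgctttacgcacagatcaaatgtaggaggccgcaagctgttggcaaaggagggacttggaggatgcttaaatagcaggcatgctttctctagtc
Mrc1, chr2:14229164-14229413, plus strand: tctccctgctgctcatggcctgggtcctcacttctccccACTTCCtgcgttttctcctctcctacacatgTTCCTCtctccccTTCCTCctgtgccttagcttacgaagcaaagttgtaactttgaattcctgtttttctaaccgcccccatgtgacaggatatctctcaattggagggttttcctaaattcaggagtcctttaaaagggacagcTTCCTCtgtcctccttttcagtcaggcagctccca
Cd68, chr11:69666171-69666420, minus strand: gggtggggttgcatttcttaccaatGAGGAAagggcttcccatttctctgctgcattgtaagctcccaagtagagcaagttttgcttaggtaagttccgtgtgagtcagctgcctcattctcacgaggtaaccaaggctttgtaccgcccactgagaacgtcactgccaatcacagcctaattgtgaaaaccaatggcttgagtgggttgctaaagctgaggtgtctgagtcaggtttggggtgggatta
The lysozyme windows had the same base at 92 of the 100 positions nearest the start and at 152 of 250 without gaps, and both held GGAAGT on the reverse strand 95 bases before the start. Mrc1 held 3 GAGGAA matches and 1 GGAAGT match, all on the reverse strand. A match is a description of letters and not evidence of binding, and the windows of Mpeg1, which rose, and of Lgals3 held neither motif.

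Galectin-3, encoded by Lgals3 (chromosome 14, 47373860 to 47386167), is a lectin for beta-galactosides also known as Mac-2. Its values were 9.75, 9.77 and 9.53 in uninduced and 9.34, 9.53 and 8.98 in induced samples, in the order A, B, C. Induced B lay just above uninduced C, so the groups touched. The difference of -0.40 (SE 0.16, limma adjusted p = 0.153) did not pass, and its 95% interval ran from -0.76 to -0.04 before adjustment. It was -0.25 without induced C and -0.09 after cyclic loess.

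Cd14 is the surface co-receptor that passes lipopolysaccharide to Tlr4 and Ly96, and its gene lies on chromosome 18 (36725064 to 36726815). It was at 8.87, 9.40 and 8.60 in uninduced and 8.24, 8.85 and 7.44 in induced samples A, B and C, the widest spread within a group among the 9 genes (SD 0.41 and 0.71, n = 3 each). Induced B overlapped the uninduced range, and induced C was below its array's background limit. The difference was -0.78 (SE 0.31, limma adjusted p = 0.153), with a 95% interval from -1.47 to -0.08 before adjustment, and -0.41 without induced C. Of 13 measured partners of Cd14 in sensing lipopolysaccharide, limma called 0 in either direction (2 higher and 1 lower at an unadjusted p under 0.05), and their median difference was -0.19 as deposited, -0.33 after median centring and 0.02 after cyclic loess. As deposited, 9 of the 13 lay below 0 and 4 above. The 2 higher at that unadjusted limit were Tlr2, at 0.57 (SE 0.20), and Ticam2, at 0.46 (SE 0.13). Tlr2 was above background on every array, and Ticam2 on none. Tlr4, the signalling receptor, was at -0.25 (SE 0.18) and its co-factor Ly96 at -0.03 (SE 0.14). The 4 brightest partners were Lbp, the plasma binding protein of lipopolysaccharide, at -0.34 (SE 0.16), the adaptor Myd88 at -0.19 (SE 0.17), the inhibitory kinase gene Irak3 at -0.08 (SE 0.13) and the ubiquitin ligase gene Traf6 at -0.63 (SE 0.27). After cyclic loess Tlr4 and Lbp were at -0.01 and -0.04, and Ly96, Myd88 and Irak3 lay above 0, at 0.20, 0.12 and 0.23. Traf6, the 1 partner lower at an unadjusted p under 0.05, was at -0.32 there, and Tlr2 and Ticam2 at 0.76 and 0.30. Tlr4, Ly96, Tlr2 and Ticam2 were named after their values were seen.

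The induced samples differed among themselves. Over all genes, differences from the uninduced mean had an SD of 0.25 in the A sample, 0.48 in B and 0.43 in C. In induced A, where genes in general lay closest to the uninduced mean, Adgre1 was at 2.78, Mrc1 at 2.21 and Cd68 at 1.64 above it, the highest of the 3 arrays for each. Lyz1 (1.19) and Siglec1 (0.68) were highest there too. Mpeg1 was lowest there, at 1.62 against 1.74 in induced B and 1.95 in induced C. Lyz2 differed least between arrays, at 1.46, 1.40 and 1.42 in A, B and C. Lgals3 and Cd14 were lowest in induced C, at -0.71 and -1.51, and nearest to 0 in induced B, at -0.15 and -0.10. Without induced A the 6 members were called, among 1998 higher and 3535 lower genes. These differences between replicates were not tested.

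**Figure D3:**
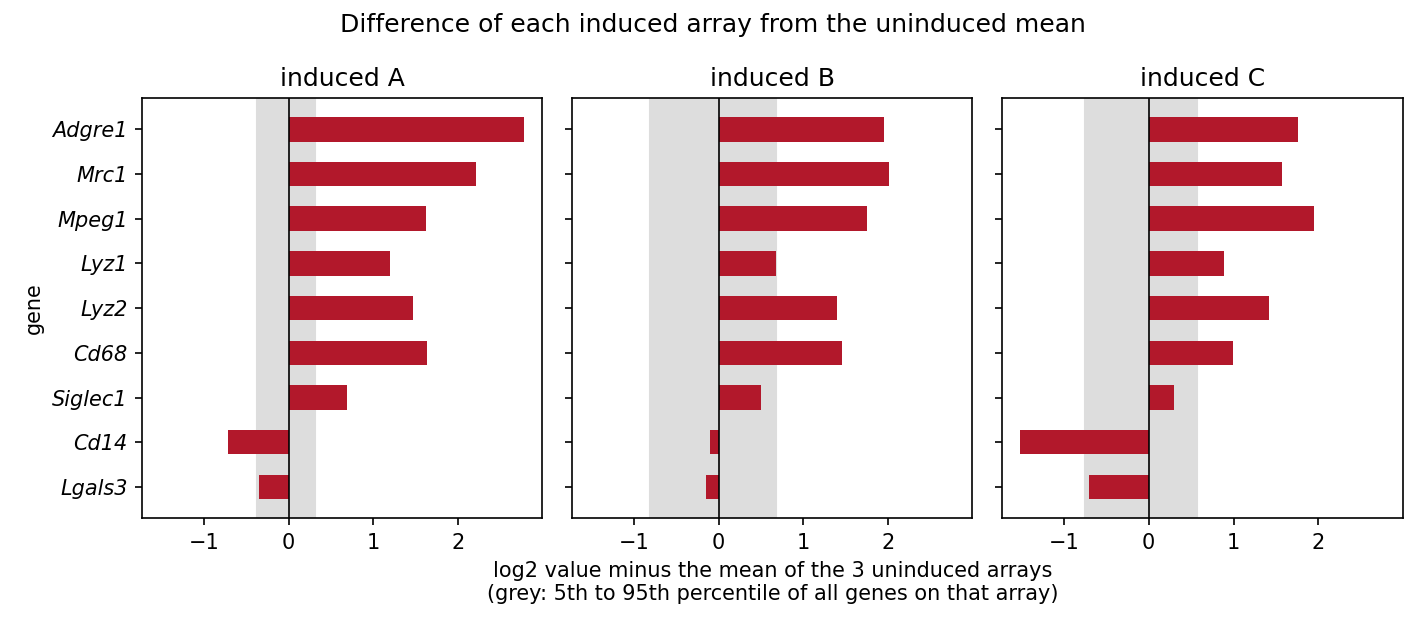
Log2 value of each gene in induced A, B and C minus the mean of the 3 uninduced arrays (bars); grey marks the 5th to 95th percentile of all genes on that array, which runs from -0.37 to 0.32 in A, from -0.81 to 0.67 in B and from -0.75 to 0.56 in C. Adgre1, Mrc1, Mpeg1, Lyz2 and Cd68 lie beyond the grey band in every panel.

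Among 28 measured relatives of these genes by protein family, 1 was called higher and 0 lower by limma (3 higher and 4 lower by unadjusted p), and their median difference was 0.24, or 0.10 after median centring and 0.11 after cyclic loess. The one called was Siglece, an inhibitory sialic acid receptor of myeloid cells, from 6.18 ± 0.29 to 7.74 ± 0.08 (mean ± SD, n = 3 per group, adjusted p = 0.0011). It was above background on 1 of the 6 arrays, so no size is given. Of the relatives of Cd68 in the LAMP family, the major lysosomal membrane protein gene Lamp1 was at 0.15 (SE 0.13, limma adjusted p = 0.41). Lamp1 was named after its value was seen. Further values, picked after they were seen, were lower for 2 other galectin genes, Lgals1 at -0.51 (SE 0.14, adjusted p = 0.101) and Lgals9 at -0.58 (SE 0.14, adjusted p = 0.0703), and for Ly75, of the mannose receptor family, at -0.51 (SE 0.14, adjusted p = 0.0989). These 3 missed the threshold, and passed it without induced A at -0.64, -0.63 and -0.54, where 3535 of 22180 genes were called lower. After cyclic loess they were at -0.28, -0.27 and -0.21. The other galectin family rows lay on both sides of 0, from Lgals4 at -0.60 to Lgals12 at 0.30, and missed the threshold too. Lgals2, Lgals7 and Lgals12, all above 0, were in the range of background on every array. Lgals8, at -0.33, was above background on every array. Lgals4 was above it on 3 uninduced and 2 induced arrays, and Lgals3bp, at 0.16, on 3 uninduced and 1 induced.

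A wider list of 34 other measured macrophage genes had 0 called higher and 1 lower by limma (7 and 2 by unadjusted p), and their median difference was 0.22, or 0.08 after median centring and 0.10 after cyclic loess. For 20 of these 34 genes no array exceeded the background limit. Csf1r, the receptor for the macrophage growth factor M-CSF, was one of them, at 6.64 ± 0.07 and 6.88 ± 0.18 (n = 3 per group, limma adjusted p = 0.247). Mertk, a receptor for dying cells, was another, with a difference of 0.61 (SE 0.16, adjusted p = 0.0919), and Slc11a1, a metal transporter of phagosomes, was at 0.68 (SE 0.17, adjusted p = 0.077). Csf1r, Mertk and Slc11a1 were singled out after their values were seen. Mertk (0.45) and Slc11a1 (0.60) passed without induced A, where 1998 of 22180 genes were called higher. Slc11a1 was above background on induced A only, so both were in the range of background on all arrays left in that fit. The gene called lower was Cd36, a scavenger receptor, from 6.91 ± 0.28 to 5.77 ± 0.33 (n = 3 per group, adjusted p = 0.0189), above background on 1 array. Its call was lost without uninduced B, uninduced C (-1.12) or induced C (-1.01).

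**Figure D4:**
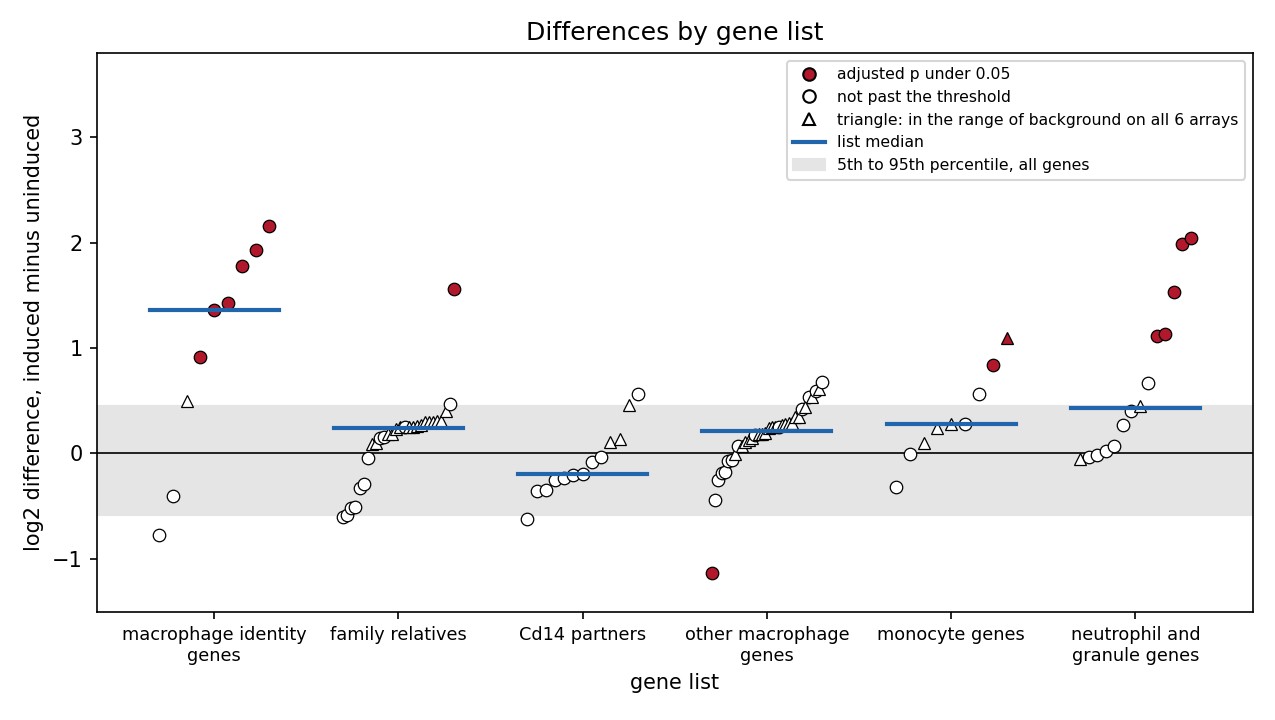
Log2 difference, induced minus uninduced, of every measured gene (symbols) in 6 lists; filled symbols passed an adjusted p of 0.05, triangles were in the range of background on all 6 arrays, blue bars are list medians and grey is the 5th to 95th percentile of all genes. The median lies at 1.36 for the macrophage identity genes, 0.24 for their relatives, -0.19 for Cd14 partners, 0.22 for other macrophage genes, 0.28 for monocyte genes and 0.43 for neutrophil and granule genes. After cyclic loess these medians were 1.63, 0.11, 0.02, 0.10, 0.16 and 0.58 in the same order.

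Some markers of other myeloid cells were also called. Among 9 measured monocyte genes, 2 were called higher and 0 lower, while over all genes 0.374% were called higher and 1.05% lower. Their median was 0.28, or 0.14 after median centring and 0.16 after cyclic loess. Treml4, of the TREM-like receptor family, was higher by 0.84 (SE 0.13, limma adjusted p = 0.0129). The other was Ccr2, the chemokine receptor of inflammatory monocytes (limma adjusted p = 0.00246), which was in the range of background on all 6 arrays. The call of Treml4 was lost without uninduced B (0.74), induced B (0.84) or induced C (0.83). Of 14 genes of neutrophils and their precursors, 5 were called higher and 0 lower, with a median of 0.43, and 8 were above background on all 6 arrays. The 5 were named after their values were seen. S100a9, a calcium-binding alarmin, and Cxcr2, a chemokine receptor, were at 1.53 and 1.13. The granule protein genes Mmp8, Ltf and Mpo were at 1.99, 2.04 and 1.11, and did not exceed the background limit on any uninduced array. The brightest of the 14, Elane, Ctsg, Prtn3 and Ngp, were at 0.07, -0.04, -0.02 and 0.02, and were not called. Of the 14, 11 lay above 0 and 3 below. The log2 of the summed level of all 14 was 15.30 to 15.36 in uninduced and 15.44 to 15.52 in induced samples. The part of these markers in the rise of Lyz2 and the other members was not tested.

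The genes whose pattern was most like the mean standardised profile of the 9, among 8752 others above background on at least 3 arrays, were Cfp (Pearson r = 0.994), Rgs9 (0.99), Tgfbi (0.988), Sla (0.986) and ND3 (0.979). These coefficients describe 6 arrays in 2 groups, and share the difference between the groups. Cfp encodes properdin, a stabiliser of the alternative complement pathway, and went from 7.59 ± 0.17 to 9.11 ± 0.40 (n = 3 per group, limma adjusted p = 0.00401). Tgfbi, a secreted matrix protein, went from 7.32 ± 0.09 to 8.48 ± 0.29 (n = 3 per group, limma adjusted p = 0.00648). In both, as in Mrc1 and Cd68, induced A was highest and induced C lowest of the induced samples. Within the 9, Cd68 (0.969) and Adgre1 (0.968) lay closest to the mean profile, and Cd14 (-0.38) and Lgals3 (-0.48) ran against it. That mean includes each gene itself, which draws its r upward.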

How the data were processed

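Total RNA of 6 samples was hybridised to 6 arrays, 3 per group by title. The authors deposited log2 expression values for 41345 transcript clusters, with Partek and mm10 named per the submitters' processing notes; for background correction, normalization and log base no source used here gives a setting, and log2 was read from the values (2.86 to 14.03). GEO's platform annotation gave 1 symbol to 23521 clusters, several to 1814 and none to 16010; the cluster with the highest mean stood for a gene. Coordinates are those of RefSeq for GRCm38.

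The test between groups was that of limma 3.58.1 (R 4.3.3; lmFit, eBayes, two-sided, no covariate, no filter), with Benjamini-Hochberg adjustment over 22180 genes at 0.05. The test was checked on simulated data with independent noise in each gene. That simulation lacked the differences between whole arrays seen here, so it does not show how the test behaves under them. Folds from the background range are taken against the mean limit of the uninduced arrays. They do not allow for the higher limits of induced B and C. The number of arrays limits the precision. The members and all lists were chosen with earlier results of these data known; 169 of 183 listed genes had a row with 1 symbol. By rule the text names all members, called genes of the pathway lists (the 4 brightest where none was called) and the 5 genes most like the members. Genes named beyond these were not chosen by that rule, and their values had been seen. Alternatives were the letter as a block, 3 scalings, 2 filters on dim genes, the mean of a gene's clusters, 2 kinds of moderation, a threshold of 0.01 and leaving out arrays.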

Additional observations from a re-analysis of the deposited data

How the results depend on the processing

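Of the 9 genes, the calls of Adgre1, Mrc1, Mpeg1, Lyz2 and Cd68 held in every alternative that gave them a value except the fit without moderation, where 0 members and 0 genes in all passed in either direction (7 members higher at its unadjusted p under 0.05); Lyz1 kept its call in 8 of 16, and Siglec1, Cd14 and Lgals3 kept their direction in all. The filter for genes above background on 3 arrays left out Mpeg1 and Siglec1, and kept Adgre1 and Mrc1 through their induced arrays only, so it says nothing of their calls. Median centring moved all genes down by 0.14, and called 46 higher and 153 lower; cyclic loess called 142 lower. The same dim filter called 393 lower, and a threshold of 0.01 left 43 higher and 55 lower. With each array left out in turn, between 45 and 1998 genes were higher and between 47 and 3535 lower, the highest numbers without induced A, and 5 to 6 higher members. Induced A alone, chosen after seeing the data, gave 41 and 19; there the spread comes from the uninduced arrays only, and the lone array is assumed to vary like them. With the letter as a replicate block, 174 genes were higher and 425 lower, and 1 member was lower, Cd14 (adjusted p = 0.0275); Slc11a1 also passed (adjusted p = 0.049). Deviations from the group means correlated at -0.31, -0.28 and 0.42 between arrays of the same letter, so a pairing was not established. The uncalled Cd14 partners Myd88, Irak3 and Ly96 each changed side of 0, and the cause was not tested: Myd88 was at 0.0284 after quantile normalization, 0.12 after cyclic loess and 0.13 with induced A alone; Irak3 at 0.14 and 0.23 after these scalings and between -0.14 and 0.0055 leaving out 1 array; Ly96 at 0.15 and 0.20, at 0.14 with induced A alone, and between -0.12 and 0.0677 leaving out 1 array. Dim signal limits Lyz1, Siglec1, Mpeg1 and the uninduced levels of Adgre1 and Mrc1.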

Other observations

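Markers of cell types other than macrophages, monocytes and neutrophils were mostly in the range of background and none was called by limma. Of 9 measured dendritic cell genes 7 lay in that range on all 6 arrays (1 higher and 0 lower at an unadjusted p under 0.05), and of 9 genes of mast cells and basophils 7 did (1 and 1). All 5 eosinophil genes (2 and 0), all 5 megakaryocyte genes (1 and 0), all 6 genes of T and NK cells (2 and 0) and the 3 measured erythroid genes (0 and 1) lay there. So did 4 of 5 B cell genes (1 and 0), 6 of 7 hepatocyte genes (3 and 0) and 5 of 7 stromal and endothelial genes (0 and 1). At that unadjusted limit 11.4% of all genes were higher and 16.9% lower. The 10 genes of myeloid cells in general had 2 called higher, and 0 lower. They were Tyrobp, a signalling adaptor of myeloid receptors, from 7.58 ± 0.44 to 10.66 ± 0.07 (n = 3 per group, limma adjusted p = 5.8e-05), and Ptprc, in the range of background throughout (adjusted p = 0.0106); both were named after their values were seen.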
